A study of Mus musculus with 2 samples.

Results

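The miRNAs described here are the products of the miR-199 and miR-214 genes of the mouse, miRNAs of mesenchymal cells of which miR-214 is known to repress Dio3. They were taken from the array's mouse probes by name, as every probe for an arm of miR-199a, miR-199b or miR-214. The rule uses names alone, though the miRNAs were picked for description with earlier results of these data known. It found 5 of 419 mouse miRNAs: mmu-miR-199a-5p, mmu-miR-199a-3p/199b, mmu-miR-199b*, mmu-miR-214 and mmu-miR-214*, each with 1 probe. Of these, 4 have a fold change in the authors' deposited table and are among the 373 mouse miRNAs compared, and mmu-miR-199a-3p/199b has none. None of the 4 passed the rule of size used here. As only 12.1% of the 373 passed it, this does not set the 4 apart.

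The cells were of G2N2C, a mouse line of basal cell carcinoma (BCC), a skin tumour driven by Hedgehog signalling. They were kept in low calcium with 8% calcium-chelated serum and keratinocyte growth factor, and were transfected with Stealth-D3, an interfering oligonucleotide against D3, or with the control oligonucleotide Stealth-ctr. RNA was taken 48 h later. D3 is the type 3 deiodinase, the enzyme encoded by Dio3 that inactivates thyroid hormone. RNA of 3 experiments per condition was combined into 1 pool, and the same pair of pools was hybridised to 2 two-colour arrays with exchanged dyes. There is thus 1 replicate per condition. No test between the conditions was possible, and each SD below is technical, over both arrays. The Dio3 transcript was not analysed here, so how far D3 was reduced has no check in these data.

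A miRNA is cut from a hairpin precursor as a duplex, either arm of which can enter the silencing complex. The bases from the second to the eighth of the arm, its seed, pair with target transcripts. In the older names on the array a star marks the arm then thought to be the minor one, so that mmu-miR-214 is the 3p arm and mmu-miR-214* the 5p arm, and mmu-miR-199b* is the 5p arm of its hairpin. miR-214 has been shown to repress Dio3 in mouse heart, which ties it to the gene interfered with here, and in the zebrafish it represses su(fu), a negative regulator of Hedgehog signalling. In mouse skin it has been linked to repression of beta-catenin in the hair follicle. The cluster of miR-199a-2 and miR-214 is transcribed as part of the long noncoding RNA Dnm3os, which the transcription factor Twist1 activates in mesenchyme.

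The mature sequences below, from RefSeq on build GRCm38.p6, show which arms share a seed, printed in capitals, and so which probes report on like or identical molecules.
mmu-miR-214-3p: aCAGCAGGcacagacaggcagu
mmu-miR-761: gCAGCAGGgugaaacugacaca
mmu-miR-214-5p: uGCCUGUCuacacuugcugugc
mmu-miR-199a-5p: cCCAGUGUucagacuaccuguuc
mmu-miR-199a-3p: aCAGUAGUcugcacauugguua
mmu-miR-199b-3p: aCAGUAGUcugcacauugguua
The 3p arms of miR-199a and miR-199b are identical over all 22 bases, so the single probe mmu-miR-199a-3p/199b cannot tell them apart. miR-761 is the only further mature miRNA, of 1679 names in the table, with the seed of one of the family arms printed here. It shares the seed of miR-214-3p, and set base against base from the 5′ end it is identical to it at 13 of 22 positions.

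The genes lie at 3 loci of GRCm38.p6, each inside a dynamin gene and on the opposite strand to it. Mir199a-2 (chr1:162217814-162217923) and Mir214 (chr1:162223368-162223477) are on the plus strand, 5444 bases apart. Both lie within Dnm3os (chr1:162217623-162225550), which runs against Dnm3. Mir199a-1 (chr9:21496495-21496564) lies against Dnm2, and Mir199b (chr2:32318460-32318569) lies against Dnm1. Because Mir199a-1 and Mir199a-2 give the same mature arms, the miR-199a probes report on both loci together. The clustered hairpins are printed with their mature arms in capitals, to show that miR-214 and miR-214* are read from a single precursor and miR-199a-5p from its neighbour.
Mir199a-2: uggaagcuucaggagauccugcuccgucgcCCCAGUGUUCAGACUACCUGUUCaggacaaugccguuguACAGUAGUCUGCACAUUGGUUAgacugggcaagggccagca
Mir214: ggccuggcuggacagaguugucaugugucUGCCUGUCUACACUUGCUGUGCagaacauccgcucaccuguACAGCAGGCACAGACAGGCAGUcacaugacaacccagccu

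All ratios are dye ratios that the authors deposited, taken here as log2. Cy3 labelled the D3-interfered pool on the first array and the control pool on the second, and Cy5 the other pool each time. The first array was therefore given the opposite sign before averaging. A positive value then points to the side on which miR-21, the mouse miRNA with the mean farthest from 0, lies with 3.08 and 4.12 (mean 3.60). Which dye is the numerator of the deposited ratios is not stated in the sources used here. Were it Cy5, a positive value would mean more in the D3-interfered pool, and were it Cy3, more in the control pool, so no direction is given.

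mmu-miR-214, the arm known to act on Dio3, had turned log2 ratios of -0.42 (first array) and 0.65 (second array). The arrays thus lay on opposite sides of 0. The mean was 0.11 ± 0.76 (technical SD, 2 arrays), a difference of 1.08-fold in size and far within that SD. In the authors' deposited table its log2 fold change is -0.15, of the other sign and also close to 0. Before turning, both arrays were positive, with 0.42 and 0.65. Of the 373 miRNAs, 54.7% likewise had turned arrays of opposite sign. Whether the dye acted on this probe was not tested. The dye part, which is the mean before turning, was 0.54, or 4.82 times the size of the pool part, the mean after turning. It lay at percentile 87.3 of the dye parts of the 373 miRNAs. The technical SD was also among the wider ones, at percentile 86.2.

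mmu-miR-214*, the other arm of the same hairpin, had turned log2 ratios of 0.65 and 0.13. Both were on the side of miR-21, and the mean of 0.39 ± 0.37 (technical SD, 2 arrays), or 1.31-fold, was the farthest from 0 in the family and just above its SD. It was at percentile 82.2 of the means of the compared miRNAs with their signs, and in size at percentile 74.7. The authors' deposited table gives it a log2 fold change of -0.04, which has the other sign. The arms could not be told apart: miR-214 minus miR-214* was -1.07 for the first array but 0.52 for the second, a mean difference of -0.28 ± 1.13 (technical SD, 2 arrays).

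mmu-miR-199a-5p, an arm shared by both miR-199a genes and known to repress Hif1a in rat heart cells, had turned log2 ratios of 0.33 and -0.30. Its arrays nearly cancelled, to a mean of 0.01 ± 0.45 (technical SD, 2 arrays). In size this mean was at percentile 3.35 of the compared miRNAs, so few lay nearer to 0. Before turning, both of its arrays were negative, and its dye part of -0.32 was opposite in sign to that of its cluster neighbour miR-214. miR-199a-5p minus miR-214 was accordingly 0.75 on one array and -0.95 on the other, with a mean of -0.10 ± 1.205 (technical SD, 2 arrays). The authors' deposited table gives miR-199a-5p a log2 fold change of -0.02.

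mmu-miR-199b*, from the locus within Dnm1, had turned log2 ratios of 0.49 and 0.03. Both were on the side of miR-21 but the second was close to 0. The mean was 0.26 ± 0.32 (technical SD, 2 arrays), within its own SD, and the authors' deposited table gives 0.05. mmu-miR-199a-3p/199b, whose arm is known to repress Met and Mtor, had turned log2 ratios of 0.03 and -0.10 and a mean of -0.03 ± 0.09 (technical SD, 2 arrays). It had the narrowest SD of the family. This probe is one of those for which the authors' table holds no fold change, and it enters no count of miRNAs past the rule of size.

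**Figure D1:**
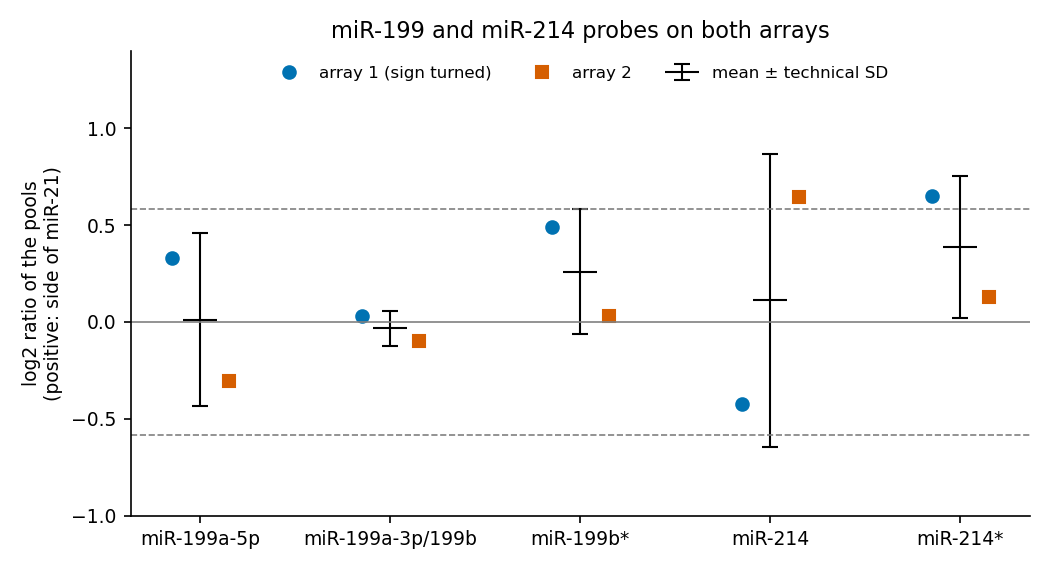
Turned log2 ratio of the pools (vertical axis) for each miR-199 and miR-214 probe (horizontal axis); circles are the first array, squares the second, bars the mean with its technical SD over the 2 arrays, and dashed lines a 1.5-fold difference. miR-214 and miR-199a-5p have arrays on opposite sides of 0, with means of 0.11 and 0.01, and no mean reaches a dashed line.

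The rule of size asks that the turned arrays share a sign and that their mean reach 1.5-fold (0.585 on the log2 scale). By it, 0 of the 4 compared members passed. Of all 373 mouse miRNAs, 12.1% passed, 8.85% on the side of miR-21 and 3.22% opposite. With so few members, 0 is close to what that share gives, and it does not set the family apart. At 1.2-fold (0.263) only miR-214* passed, 1 of 4 against 26.5% of all. The median of the 4 means was 0.19, beside 0.08 for all 373, whose middle part ran from -0.12 at percentile 25 to 0.28 at percentile 75. In the authors' deposited table no member reached 1.5-fold, where 9.38% of the 373 did. The members' fold changes there ran from -0.15 to 0.05 with a median of -0.03, against -0.02 for all. Their unadjusted p-values in the authors' deposited table lie between 0.353 and 0.855, though what served as replicates for these is not stated.

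Signs were also compared between the arrays. Both turned arrays had the same sign for 2 of the 5 members, namely miR-214* and miR-199b*, and for 45.3% of the 373 miRNAs.

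**Figure D2:**
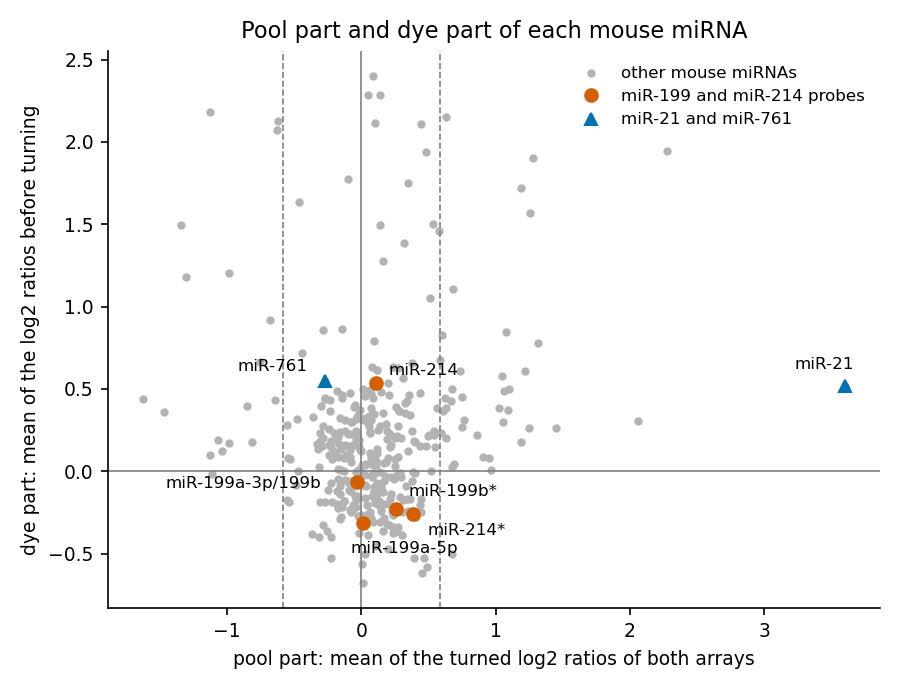
Pool part (horizontal axis, log2) against dye part (vertical axis, log2) of the compared mouse miRNAs in grey, the 5 family members as circles, and miR-21 and miR-761 as triangles; dashed lines mark 1.5-fold. The family lies in the dense part of the cloud, miR-214 at a dye part of 0.54 with a pool part of 0.11, while miR-21 lies at a pool part of 3.60.

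Members were also compared with each other on the same arrays. Of the 10 pairs, 5 differed in a direction that both arrays shared. The same 5 had a mean difference larger than its technical SD. That is no further evidence, since with so few arrays a mean can exceed its SD only where their signs agree. The pairs reuse the same 5 probes and are not independent. How often pairs of other miRNAs agree in this way was not tested. miR-214* exceeded miR-199a-5p by 0.32 and 0.43, a mean of 0.37 with an SD of 0.08, and miR-199b* exceeded it by 0.16 and 0.34, a mean of 0.25 with an SD of 0.12. All of these differences were smaller than 1.5-fold, and miR-214* and miR-199b* were dim, as given below. The authors' deposited table has -0.04 for miR-214*, -0.02 for miR-199a-5p and 0.05 for miR-199b*. There the order of miR-214* and miR-199a-5p is reversed, and that of miR-199b* and miR-199a-5p is kept. The difference of miR-214 from each of the other 4 changed sign between the arrays. miR-214* and miR-199b*, 5p arms from different chromosomes, were closest in pattern within the family, 0.16 and 0.09 apart on the arrays (SD 0.05).

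Of the 5 members, 3 were dim on these arrays. The average log2 intensities of the members in the authors' deposited table are 7.56 for miR-214, 7.09 for miR-199a-5p, 6.89 for miR-199b*, 6.79 for miR-214* and 6.78 for miR-199a-3p/199b, on a scale that runs from 6.37 to 14.8 over all probes. Intensities of different probes do not rank the levels of different miRNAs. They do show how near a probe is to the dim end: probes without a fold change reach 6.99, and miR-199b*, miR-214* and miR-199a-3p/199b lie below that, a limit that 136 of the 373 compared miRNAs do not exceed. miR-214 was at percentile 63.7 of the compared miRNAs and miR-214* at percentile 15.01. For the 3 dim probes a ratio near 0 does not show that the levels were alike. Nor does a mean near 0 for miR-199a-5p and miR-214, whose arrays lay on opposite sides of 0. miR-199a-5p is also only just above 6.99 and below the median of 7.16 of the compared miRNAs.

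The deposited ratios depended on brightness, with Pearson correlations across the 2101 probes of 0.51 and 0.57 on the arrays. These probes share each array and are not independent replicates. At the members' intensities the smooth trend was small, from -0.09 to 0.12 for one array and from -0.03 to 0.17 for the other. Its removal left miR-214 with -0.31 and 0.48, still on opposite sides, and a mean of 0.09 ± 0.55 (technical SD, 2 arrays). miR-214* had 0.58 and 0.15, with a mean of 0.37 ± 0.31 (technical SD, 2 arrays). miR-199a-5p remained on opposite sides with 0.32 and -0.34, and miR-199b* had 0.40 and 0.06. miR-199a-3p/199b, one of the dim probes, then had -0.03 and -0.08, both on the side opposite miR-21. Arrays of the same sign were then found for 3 of the 5 members, beside 51.7% of the 373 miRNAs. No member passed the rule of size with the trend removed, when 13.4% of all 373 did.

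**Figure D3:**
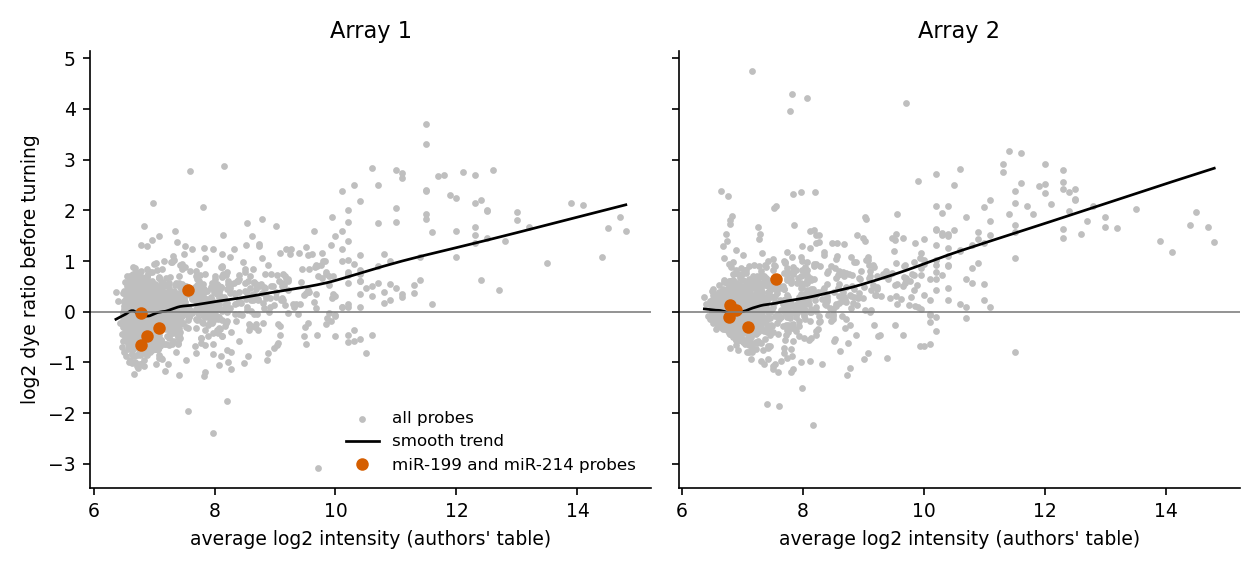
Log2 dye ratio before turning (vertical axis) against the average log2 intensity in the authors' table (horizontal axis) for all probes of each array, with the smooth trend as a line and the 5 family members as filled circles. The members sit at intensities of 6.78 to 7.56, where the line is near 0, and miR-214 lies above the line on both arrays.

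**Figure D4:**
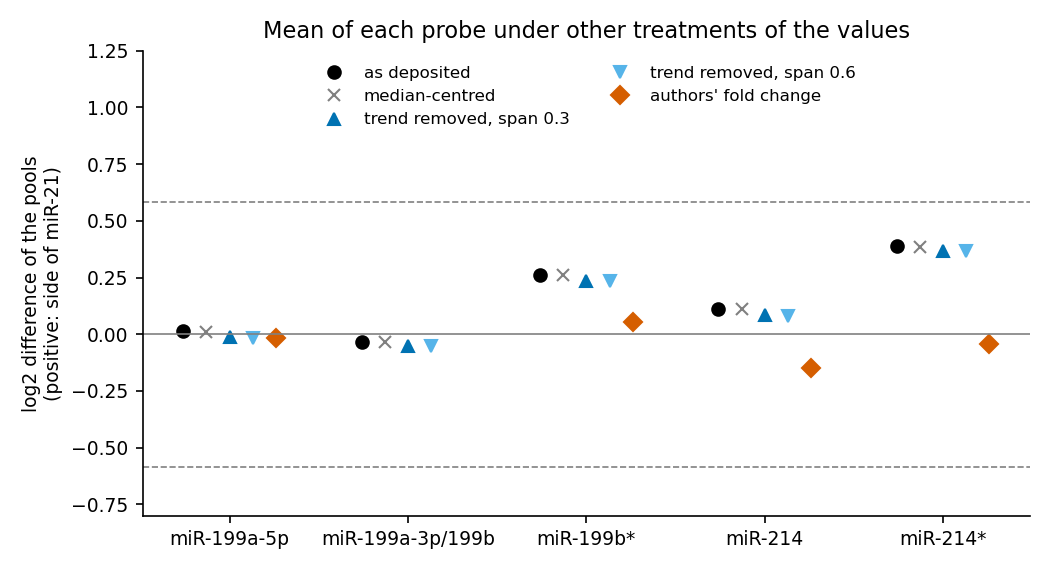
Mean log2 difference of the pools (vertical axis) for each member (horizontal axis) as deposited, with median-centred arrays, with the trend removed at spans of 0.3 and 0.6, and as the authors' fold change; dashed lines mark 1.5-fold. No marker reaches a dashed line, and the authors' fold changes of miR-214 (-0.15) and miR-214* (-0.04) lie below 0 where the other markers lie above it.

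miR-761, which shares the seed of miR-214-3p, had turned log2 ratios of -0.82 and 0.28 and a mean of -0.27 ± 0.78 (technical SD, 2 arrays). Its arrays had opposite signs in the same order as those of miR-214. Its dye part of 0.55 lay beside the 0.54 of miR-214. The authors' deposited table gives miR-761 a log2 fold change of -0.29, negative like that of miR-214. With 2 arrays of 1 pair of pools this likeness is a description only.

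The miRNAs nearest to each member in pattern were found by distance between their turned ratios on the 2 arrays. miR-214 was nearest to miR-486, miR-712 and the shared probe of miR-467a* and miR-467d*, at distances of 0.09, 0.09 and 0.11 on the log2 scale. miR-214* was nearest to miR-363 (0.04), miR-140 (0.07) and miR-875-5p (0.08). miR-140 is a cartilage and mesenchyme miRNA. miR-199a-5p was nearest to miR-547, miR-501-3p and miR-9, at 0.07 to 0.08, and miR-199b* to miR-302c, miR-505 and miR-302b*, at 0.05 to 0.06. miR-199a-3p/199b was nearest to miR-192, miR-450a-5p and miR-873, at 0.01 to 0.05. With the trend removed these 3 remained the nearest to miR-199a-3p/199b, and miR-501-3p remained among those of miR-199a-5p. None of the 3 remained for miR-214, miR-214* or miR-199b*.

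Other miRNAs linked to the same biology are given for their counts. Of 16 thyroid-hormone-linked miRNAs, miR-214 and miR-761 among them, 12 were compared. The oncogenic miR-21 and miR-378, a miRNA of energy metabolism, passed on the side of miR-21, against none opposite. This is 2 of 12 called, near the 12.1% of all compared miRNAs. The list median was 0.24, beside 0.08 for all compared miRNAs. With the trend removed it was 0.10, beside 0.03 for all. By the authors' fold changes it was -0.04, beside -0.02 for all. The size and the sign of this list median thus depended on the processing. Since miR-21 defines the side, its own side was fixed in advance, here and in the next list. Of 18 names linked to Twist1 or to epithelial-mesenchymal transition, 16 were compared, and 4 passed on each side, with a median of -0.01, where 8.85% and 3.22% of all did. Those opposite miR-21 were miR-141, miR-200b and miR-200c, which maintain the epithelial state, and miR-34a, a p53 target. Those on its side were miR-21 itself, miR-221, miR-222 and miR-30a. Neither miR-214 nor miR-199a-5p was among them.

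Markers of cell types were read beside the family, since miR-199 and miR-214 mark mesenchyme. The labels give an epithelial tumour line. All 7 keratinocyte miRNAs were brighter than 6.99, from 7.16 to 11.9, but so were 5 of the 6 fibroblast and mesenchyme miRNAs below, up to 10.6. Only 136 of the 373 compared miRNAs do not exceed this limit, so passing it does not mark a cell type. Of the 7 keratinocyte miRNAs, 3 passed the rule, all opposite miR-21, where 3.22% of all lie, with a list median of -0.33. They were miR-141, miR-200b and miR-200c, already counted above in the list for epithelial-mesenchymal transition. The other 4 did not pass, from miR-203 with a mean of -0.33 to miR-205 with 0.09, whose arrays read -2.31 and 2.49. Among 6 other fibroblast and mesenchyme miRNAs only miR-143 passed, on the side of miR-21 with 2.06 ± 0.43 (technical SD, 2 arrays). The other 5 did not pass, from miR-152 with a mean of 0.09 to miR-22 with 1.26, whose arrays read -0.31 and 2.82. With the trend removed miR-22 read 0.52 and 1.62 and passed as well. Neither endothelial miRNA passed, and none of 4 blood and 4 muscle miRNAs did, with list medians of -0.02, 0.01 and 0.10. Fewer cells of a type and less RNA per cell cannot be told apart in such pools.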

How the data were processed

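Total RNA was labelled with Cy3 or Cy5 for arrays of locked nucleic acid probes, per the labels' protocols. The authors' deposited value table has 1 log ratio of the dyes per array for 2244 features. It was taken as log2, an assumption on which all fold sizes computed from it and the rule of size rest. Its turned mean follows the authors' log2 fold change (r = 0.83 over 1677 probes), but a correlation is the same for any base of the logarithm. The sources used here state neither the centring nor the dye order of this table. Its columns had medians of 0.039 and 0.040. The other deposited table covers 2101 probes. Per the file headers its columns are the log2 fold change, the mean brightness on a log2 scale, an unadjusted p-value, and the fold change again with a sign, which was treated as a score. Background correction and normalization: not given in the sources used here. Neither the p-values nor the signed fold changes decided a call.

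Probes with mouse status and no mismatch design were used, and probes of 1 miRNA were averaged. Of these, 373 miRNAs have a fold change in the authors' table. Both arrays hold the same pools, so they count as 1 replicate, and precision is limited by having only 2 arrays. The smooth trend was lowess on average intensity over all 2101 probes, with a span of 0.3, or 0.6 as an alternative. Further alternatives were single arrays, centring on the median, the authors' fold changes, thresholds of 1.2-fold and 2-fold, no demand on signs, brighter miRNAs only and dim probes included. The trend removal and the rule of size were tested on simulated data. The planted changes were larger than 1.5-fold, the noise was smaller than in these data, and single probes had no dye effect. How the rule performs on small changes at the noise of these arrays was therefore not tested.

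Named are all members, miRNAs with a member's seed, miR-21, the 3 miRNAs nearest to each member by Euclidean distance over the turned arrays, and the marker miRNAs that passed. Named after their values were seen were miR-152, miR-22 and the members of the further lists that passed. The members and lists were chosen with earlier results of these data known. The tools were statsmodels 0.14.6, pandas 2.3.3, NumPy 2.4.6 and matplotlib 3.10.9 under Python 3.11.15.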

Additional observations from a re-analysis of the deposited data

How the results depend on the processing

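With the trend removed or by the authors' fold changes, 13 of 14 values of the members lay within 1 technical SD of the mean as deposited; centring left each the same to 2 decimals, and a single array lies within that SD by construction. The exception was miR-214*, at -0.0435 in the authors' deposited table against 0.39. The SDs are wide, so a value within 1 SD can still have the other sign. The authors' fold change had the sign of the mean as deposited for 1 of the 4 members, against 73.5% of all 373 miRNAs. The cause was not tested. No member passed the rule of size under 2-fold, median-centred arrays, either span of the trend, the authors' fold changes or without the demand on signs. On the first array alone 1 member reached 1.5-fold (miR-214*), on the second alone 1 other (miR-214), and at 1.2-fold 1 (miR-214*). Of all mouse miRNAs 45 passed; this was 85 on the first array alone, 104 on the second alone, 99 at 1.2-fold and 22 at 2-fold, and from 35 to 58 under the other alternatives. The planned readout of probes of other species with a miR-199 or miR-214 name was not run, because the 1586 near-homologue probes of the array all carry 1 common name in the authors' table. Dim signal limits miR-199b*, miR-214* and miR-199a-3p/199b. No paired analysis was possible because the arrays share 1 pair of pools.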
